A study of Mus musculus with 12 samples.

Results

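The 36 genes described here are a list of cell cycle and proliferation genes, taken by name from a table of 56350 mouse genes. By role, 6 drive entry into the cycle in G1, 10 copy the DNA or supply its building blocks and 20 act in mitosis. Polyadenylated RNA came from the apex of the left ventricle, 8 weeks after surgery, in 4 groups of 3 libraries. The groups were lincRNA-p21 knockout after transverse aortic constriction (TAC), control after TAC, knockout after sham surgery and control after sham surgery. TAC narrows the aortic arch and so loads the left ventricle with pressure; the sham operation leaves the aorta open. The knockout is global, in every cell type, and removes a long noncoding RNA that p53 switches on, lincRNA-p21 (symbol Trp53cor1). The controls are littermates given as heterozygous for lincRNA-p21, so no group here is wild type. The labels name neither the animals nor their age, strain or the deleted stretch, so p-values measure the spread between these libraries.

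A cell enters the cycle when D-type cyclins with their kinases, and then E-type cyclins, phosphorylate the Rb proteins and free E2F factors, which switch on the genes of DNA replication. Mitotic genes come on later and are held down in resting cells by the DREAM complex, which binds a promoter element called the CHR, often next to CCAAT boxes. The inhibitor p21, encoded by Cdkn1a next to lincRNA-p21, blocks the cyclin-dependent kinases and so keeps Rb and DREAM repressive. Adult cardiomyocytes rarely divide, so most cycling cells in a ventricle are of other types.

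The promoters of Mki67, Top2a, Cenpf and Mcm6 are shown because the values below turn on the first 3 as mitotic genes and Mcm6 stands for the replication genes. Each runs from 250 bases before to 50 bases after the gene's start (RefSeq, GRCm38.p6) and is written 5′ to 3′ on the gene's strand. Capitals mark matches to TTTGAA for the CHR, to the letters of the CCAAT box itself, and to TTTCCCGC or TTTGGCGC for the E2F site. Each was searched on both strands, so capitals can also show the reverse complement.
Mki67, chr7:135716330-135716629, minus strand: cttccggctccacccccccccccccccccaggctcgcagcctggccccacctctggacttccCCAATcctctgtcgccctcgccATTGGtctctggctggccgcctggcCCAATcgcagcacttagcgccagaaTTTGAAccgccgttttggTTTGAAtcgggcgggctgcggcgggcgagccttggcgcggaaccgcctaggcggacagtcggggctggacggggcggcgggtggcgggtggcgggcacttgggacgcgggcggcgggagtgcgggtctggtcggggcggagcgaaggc
Top2a, chr11:99024140-99024439, minus strand: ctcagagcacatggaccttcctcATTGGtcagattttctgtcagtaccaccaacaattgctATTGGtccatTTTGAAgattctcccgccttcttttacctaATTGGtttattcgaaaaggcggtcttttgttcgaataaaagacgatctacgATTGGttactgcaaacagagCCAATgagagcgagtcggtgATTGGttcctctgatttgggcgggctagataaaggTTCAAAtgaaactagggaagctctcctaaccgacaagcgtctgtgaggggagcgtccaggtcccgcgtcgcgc
Cenpf, chr1:189688037-189688336, minus strand: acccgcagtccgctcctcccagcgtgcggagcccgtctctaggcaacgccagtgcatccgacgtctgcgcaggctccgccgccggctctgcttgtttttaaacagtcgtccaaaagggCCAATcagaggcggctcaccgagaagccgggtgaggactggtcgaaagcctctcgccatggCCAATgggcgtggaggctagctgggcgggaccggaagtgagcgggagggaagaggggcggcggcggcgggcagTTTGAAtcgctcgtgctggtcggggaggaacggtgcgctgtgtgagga
Mcm6, chr1:128359656-128359955, minus strand: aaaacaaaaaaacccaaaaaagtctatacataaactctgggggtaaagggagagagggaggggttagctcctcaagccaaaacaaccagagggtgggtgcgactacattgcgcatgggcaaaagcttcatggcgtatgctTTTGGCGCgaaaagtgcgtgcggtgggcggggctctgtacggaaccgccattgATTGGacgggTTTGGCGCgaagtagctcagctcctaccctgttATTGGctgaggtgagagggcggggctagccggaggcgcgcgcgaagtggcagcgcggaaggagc
The Mki67 window held 2 CHR and 3 CCAAT matches, that of Top2a 2 and 6, and that of Cenpf 1 and 2. The CHR match of Cenpf lay just after the start, at position 3, and those of Mki67 at −116 and −98 before it, counting the start as 1. Mcm6 held 2 E2F and 2 CCAAT matches and no CHR match. Promoters were found for 29 of the 36 genes, and not for Ccnd2, Ccnd1, Ccne2, Mcm4, Ccna2, Aurkb or Tpx2. A CHR was present for 12 of 17 mitosis genes and 1 of 9 replication genes, against 17.89% of all 32851 promoters. A CCAAT box was present for 15 of 17 mitosis genes and 8 of 9 replication genes, against 37.41% of all promoters. The E2F site was present for 0 of 17 mitosis genes and for 4 of 9 replication genes (Mcm3, Mcm5, Mcm6 and Mcm7), against 1.565% of all promoters. In these promoters 0 matches of different motifs overlapped. A match says only that the letters are present.

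Libraries held 10323605 to 13238934 reads assigned to genes. Values are normalised read counts, that is reads over a size factor of the library, and stand in the order of replicates 1 to 3 or as mean ± SD (n = 3). Changes are differences of log2(value + 1) ± SE from limma-trend, a scale that understates changes of low genes, and adjusted p-values are by Benjamini-Hochberg over the 13916 genes that reached a value of 10 in 3 or more libraries. Trp53cor1 had 0 reads in the 6 knockout libraries and 11 in the 6 control libraries, 2 of which also had 0. The 6 cardiomyocyte markers were all present, as a ventricle should have them. On the second principal component control sham replicate 3 lay far from all others (score −46.75), and results that turn on it are also given without it. No 2 libraries of a group were identical, and their chi-square per gene was 5.55 to 59.1.

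Most of the 36 genes were low. Per transcript length, the mitosis genes had a median of 0.923 TPM (reads per exon length, scaled to the same total in each library), the replication genes 4.04 TPM and the G1 genes 6.10 TPM. The highest were the cyclins Ccnd1 (41.3 TPM), Ccnd2 (32.3 TPM) and Ccnd3 (10.8 TPM), which start the cycle, and Pcna (17.3 TPM), the sliding clamp of DNA polymerase. Among mitosis genes Cenpf, a large protein of the kinetochore, was the highest at 4.38 TPM, and the other 19 reached at most 2.84 TPM. Kif11, a spindle motor, was listed at 0 in all 12 libraries, which allows up to 3 reads in each. Whether the counting set this value could not be seen from the files. Ccnb1, cyclin B1, had 28 reads in all 12 libraries together, with values of 0 to 6.33. Bub1, a kinase of the spindle checkpoint, had 61 reads and reached a value of 10 in control TAC replicates 1 (11.9) and 2 (17.5). These 3 were not tested, and 33 were.

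**Figure D1:**
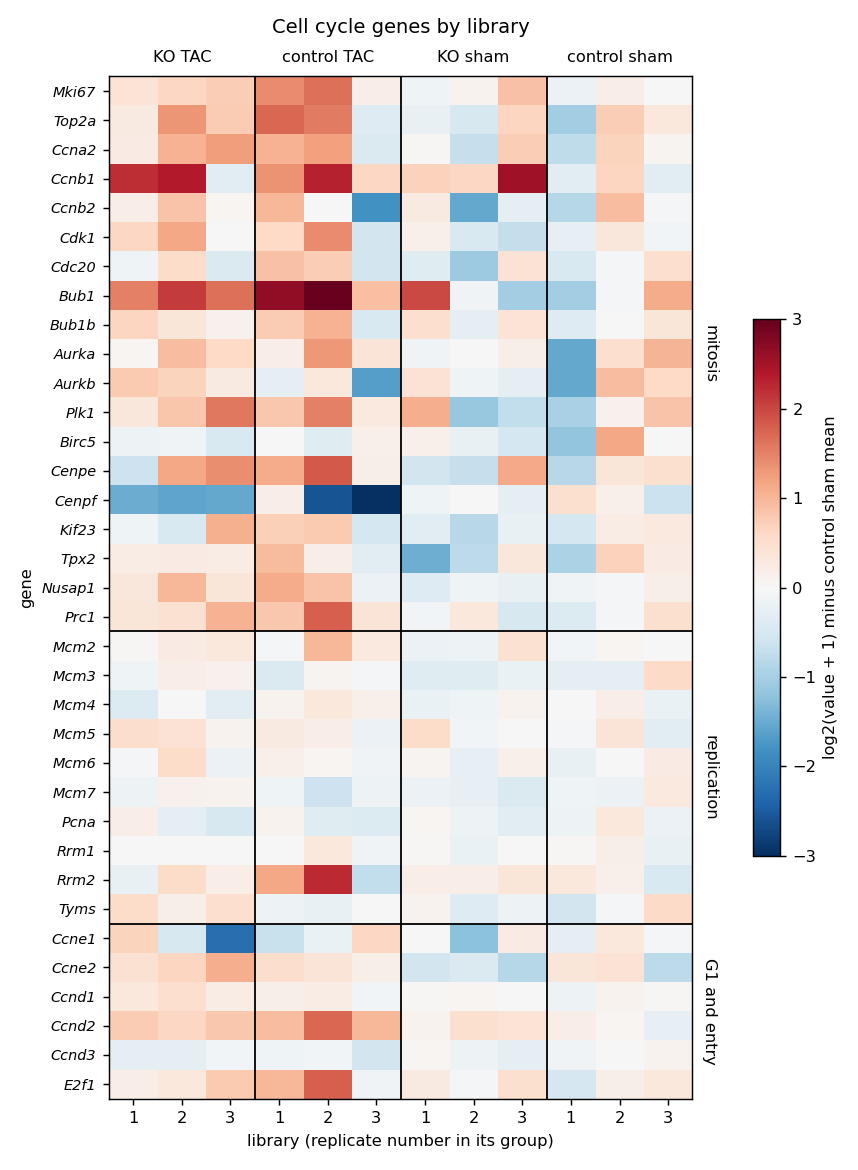
The difference of log2(value + 1) from the mean of the control sham libraries is shown in colour (scale −3 to 3) for the 35 genes with reads (rows, by role) in each library (columns, by group). Most mitosis genes are red in control TAC replicates 1 and 2 and pale or blue in replicate 3, and Cenpf is blue in all 3 knockout TAC libraries and in control TAC replicates 2 and 3.

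Summed by role, the mitosis genes were at 527, 652 and 623 in knockout TAC libraries, against 699.9, 679.7 and 754 in knockout sham libraries, without overlap. They were at 1156, 795 and 307 in control TAC libraries, against 827, 909 and 656 in control sham libraries, with overlap. Cenpf had the largest fall of these genes in both genotypes. Of the 16 other mitosis genes tested, 13 had a change above 0 after TAC in controls and 15 in knockouts. Cenpf was set aside here after its values were seen. Among all genes tested, 50.55% had a change above 0 in controls and 49.12% in knockouts. Of the 16, 1 was called in controls and 0 in knockouts. The mean of the mitosis sum over 20 genes was 601 ± 65.3 in knockout TAC, 753 ± 426 in control TAC, 711 ± 38.7 in knockout sham and 797 ± 129 in control sham libraries. Cenpf alone made up 9.46% to 76.9% of it. Without Cenpf, a sum chosen after its values were seen, the knockout TAC libraries were at 366, 501 and 466 and the control TAC libraries at 632, 720 and 259. The knockout sham libraries were then at 283, 229 and 375 and the control sham libraries at 191, 398 and 363. Control TAC replicates 1 and 2 lay above every sham library, and control TAC replicate 3 lay among them. The ratio of the means without Cenpf was 1.50 for TAC over sham in knockouts and 1.69 in controls. With Cenpf it was 0.844 in knockouts and 0.944 in controls. In controls the highest genes of the sum without Cenpf were Mki67 (mean 125 after TAC and 53.4 after sham) and Top2a (76.1 and 36.3). Gene by gene, the median log2 change of the 16 tested was 0.54 in controls and 0.68 in knockouts.

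The replication sum differed little between the groups. It was 1058 ± 69.8 in knockout TAC, 1087 ± 138 in control TAC, 980 ± 67.0 in knockout sham and 1046 ± 78.0 in control sham libraries. The G1 sum was 3014, 3024 and 3066 in knockout TAC and 3145, 4454 and 2951 in control TAC libraries. It was 2363, 2594 and 2492 in knockout sham and 2276, 2369 and 2182 in control sham libraries. Every TAC library lay above every sham library in the G1 sum, to which Ccnd1 and Ccnd2 gave the most reads. In controls its rise was mainly that of Ccnd2, with a mean of 2137 after TAC and 902 after sham. The control means were 902 and 841 for Ccnd1 and 413 and 489 for Ccnd3. In knockouts the means after TAC and sham were 1488 and 1133 for Ccnd2, 1069 and 860 for Ccnd1 and 423 and 452 for Ccnd3. In bulk tissue, more cells of a type and more RNA per cell cannot be told apart.

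**Figure D2:**
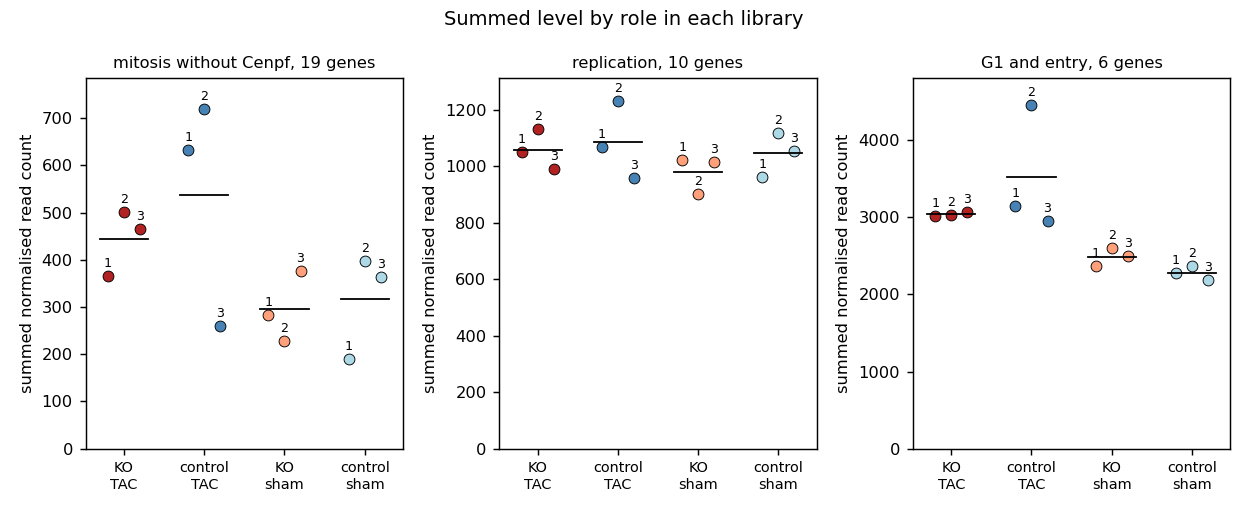
Summed normalised read counts per library (vertical axis, from 0) are plotted for mitosis genes without Cenpf, replication genes and G1 genes in the 4 groups; numbers give the replicate and lines the group mean. In the mitosis panel control TAC replicates 1 (632) and 2 (720) lie above all sham libraries and replicate 3 (259) does not.

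Control TAC was set against control sham to see how these genes respond to overload where lincRNA-p21 is heterozygous. The G1 cyclin Ccnd2 and the proliferation antigen Mki67 rose, and no member fell by this test. Among the 33 genes tested, 2 were called (6.06%), against 21.6% of all genes tested (11% higher and 10.6% lower), a share below that background. By DESeq2 4 were called (Ccnd2, Mki67, Prc1 and Rrm2, all higher), against 24% of all genes. Of these 33, 23 had a change above 0, and the median was 0.32 (all genes, 0.01). Without overlap between the groups, 2 were higher and 0 lower, against 17.7% of all genes in each direction.

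Ccnd2 (ENSMUSG00000000184.12, GRCm38 chromosome 6, 127125162 to 127152193), which with Cdk4 or Cdk6 phosphorylates Rb, was at 1699, 2936 and 1778 in control TAC libraries, against 1023, 932 and 749 in control sham libraries. All 3 TAC libraries lay above all 3 sham libraries, replicate 2 the most. The change was 1.21 ± 0.19 (limma-trend, adjusted p = 0.000681). Ccnd2 was called under each alternative setting and without any single library (highest adjusted p 0.0120, with the libraries of these groups alone). The other D cyclins did not pass. Ccnd1 was at 944, 975 and 786 in control TAC libraries, against 759, 898 and 866 in control sham libraries (0.10 ± 0.13, limma-trend, adjusted p = 0.619). Ccnd3 had a change of −0.25 ± 0.14. E2f1, the E2F factor that switches on replication genes, was at 29.2, 51.5 and 13.1 in control TAC libraries, against 9.59, 16.1 and 17.8 in control sham libraries. Its change of 0.90 ± 0.43 missed the threshold (limma-trend, adjusted p = 0.147), and without control TAC replicate 3, the low one, it was 1.40 with an adjusted p of 0.0272 by limma-trend. It was 0.45 without replicate 2 of that group, the high one (limma-trend, adjusted p = 0.537).

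Mki67 (ENSMUSG00000031004.8, chromosome 7, 135689784 to 135716361), which coats mitotic chromosomes and marks cycling cells, was at 144, 170 and 61.5 in control TAC libraries, against 46.9, 60.8 and 52.6 in control sham libraries. Replicates 1 and 2 were far above the sham libraries, and replicate 3 was just above the highest of them. The change was 1.10 ± 0.32 (limma-trend, adjusted p = 0.0255). The call was lost without control TAC replicate 1 (adjusted p = 0.0983 by limma-trend), control TAC replicate 2 (0.126), control sham replicate 1 (0.0579) or control sham replicate 3 (0.0619). It was also lost with the libraries of these groups alone (0.0659) and with the trend of length and GC content removed (0.75, adjusted p = 0.142 by limma-trend).

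Top2a (ENSMUSG00000020914.17, chromosome 11, 98992943 to 99024189), the topoisomerase that untangles chromosomes, had the same shape at a lower level, with 108, 95.8 and 24.2 in control TAC libraries, against 14.9, 54.1 and 39.8 in control sham libraries. The groups overlapped and the change was 0.97 ± 0.56 (limma-trend, adjusted p = 0.239), or 0.58 without control TAC replicate 1 and 0.44 without the first control sham library. Prc1, which bundles the microtubules of the central spindle, was at 38.9, 77.3 and 28.9 in control TAC libraries, against 16.0, 20.9 and 30.5 in control sham libraries (1.00 ± 0.38, limma-trend, adjusted p = 0.0688). Prc1 passed with DESeq2 (adjusted p = 0.0397), without control TAC replicate 3 (0.0358 by limma-trend) and without control sham replicate 3 (0.0471). Its change was 0.61 without control TAC replicate 2 (limma-trend, adjusted p = 0.315) and 0.64 after removal of the length and GC trend (0.313). The other mitosis genes tested, Cenpf aside, had changes from −0.53 (Aurkb) to 1.05 (Cenpe), none of them called.

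Cenpf (ENSMUSG00000026605.14, chromosome 1, 189640606 to 189688086) went the other way. It was at 524, 75.2 and 47.5 in control TAC libraries, against 636, 511 and 293 in control sham libraries. Control TAC replicates 2 and 3 lay below every sham library, and replicate 1 lay among them. The change was −1.88 ± 0.73 (limma-trend, adjusted p = 0.101). Without control TAC replicate 1 it was −2.91, with an adjusted p of 2.66e-05 by limma-trend. It was −1.19 without replicate 3 (limma-trend, adjusted p = 0.168), by edgeR −1.16 (adjusted p = 0.292) and by DESeq2 −1.15 (0.277).

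Of the replication genes 0 of 10 were called in controls, with changes from −0.31 to 0.88. Pcna was at 228, 165 and 158 in control TAC libraries, against 192, 266 and 187 in control sham libraries (−0.23 ± 0.20, limma-trend, adjusted p = 0.458). The ranges overlapped and no library stood out. The largest change was that of Rrm2, the small subunit of ribonucleotide reductase, named after its values were seen. It was at 54.1, 115 and 14.0 in control TAC libraries, against 29.8, 26.6 and 17.0 in control sham libraries (0.88 ± 0.53, limma-trend, adjusted p = 0.250). The change of Rrm2 was 0.21 without control TAC replicate 2. Its partner Rrm1 was at 202, 251 and 187 in control TAC libraries, against 206, 229 and 174 in control sham libraries.

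**Figure D3:**
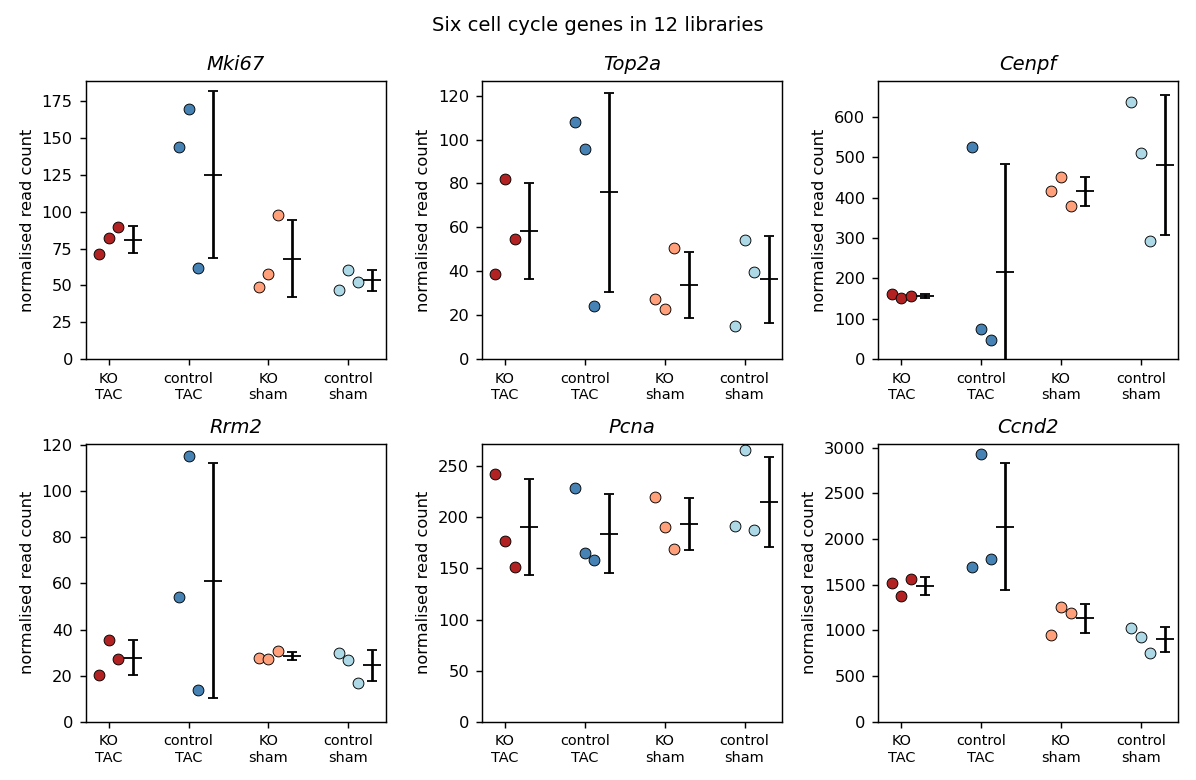
Normalised read counts (vertical axes, from 0) of 6 of the genes are plotted per library, with mean and SD beside the points (the Cenpf bar of control TAC is cut at 0). Mki67, Top2a and Rrm2 are high in control TAC replicates 1 and 2 and low in replicate 3, Cenpf is lower in all 3 knockout TAC libraries (151 to 161) than in knockout sham libraries, Pcna overlaps in all 4 groups, and Ccnd2 is higher after TAC in both genotypes.

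Control TAC replicate 3 thus differed from its group across the mitosis genes. Of the 18 with reads other than Cenpf, control TAC replicates 1 and 2 each exceeded all 3 control sham libraries for 14, and replicate 3 did so for 1 and was below all 3 for 7. Replicate 3 was the lowest of its group for 16 of the 18. It was singled out by its low values in these same genes. The same counts were not made over all genes, so whether the pattern is particular to mitosis genes was not tested. With replicate 3 left out, 6 of the 33 genes were called in this comparison (Ccnd2, Mki67, Prc1, E2f1, Top2a and Rrm2, all higher). That share is close to the 17.8% of all genes called in the same fit. Top2a then had a change of 1.64 (limma-trend, adjusted p = 0.0267) and Rrm2 one of 1.69 (limma-trend, adjusted p = 0.00760). The inhibitor Cdkn1a followed the same order, with 560, 1041 and 135 in control TAC libraries, and so was lowest in replicate 3. On cell types, replicate 3 was not the lowest of its group in summed fibroblast, endothelial or cardiomyocyte markers, but it was the lowest of all 12 libraries in erythroid markers (2407, against 4124 and 3356 in replicates 1 and 2). Its neutrophil markers were the highest of its group (93.2, against 44.3 and 53.6). The summed fibroblast markers were at 13896, 14973 and 13988, the endothelial ones at 12695, 13622 and 14261 and the cardiomyocyte ones at 647569, 692977 and 725323 in control TAC replicates 1, 2 and 3. Their part in the values of replicate 3 was not tested.

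Knockout TAC was set against knockout sham to see the response to overload without lincRNA-p21. No member passed the test, against 0.00719% of all genes (1 gene). The TAC libraries all lay above the sham libraries for the cyclins Ccne2, Ccnd1 and Ccnd2, the mitosis genes Nusap1 and Prc1 and the replication genes Tyms, Mcm3 and Mcm7, and all below them for Cenpf. Unadjusted p was under 0.05 for 4 members and for 929 of all genes, and edgeR called 0 members, as did DESeq2 (0.165% of all genes). These 8 members without overlap on the higher side and 1 on the lower stand against 8.31% and 8.87% of all genes. Of the 33, 26 had a change above 0 and the median was 0.33 (all genes, −0.01). The medians were 0.67 for mitosis, 0.13 for replication and 0.25 for G1 genes.

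Ccne2, which with Cdk2 starts DNA replication, was at 19.3, 22.2 and 30.5 in knockout TAC libraries, against 9.16, 10.04 and 7.24 in knockout sham libraries (1.34 ± 0.39, limma-trend, adjusted p = 0.593). All 3 TAC libraries exceeded all 3 sham libraries. Ccnd2 was at 1517, 1378 and 1568 in knockout TAC libraries, against 955, 1253 and 1192 in knockout sham libraries (0.40 ± 0.19, limma-trend, adjusted p = 0.735). Ccnd1 was at 1036, 1190 and 979 in knockout TAC libraries, against 858, 871 and 851 in knockout sham libraries (0.31 ± 0.13, limma-trend, adjusted p = 0.699). Neither cyclin overlapped between the groups. E2f1 was at 16.4, 17.7 and 25.1 in knockout TAC libraries, against 17.3, 13.7 and 19.9 in knockout sham libraries, which overlap.

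Among mitosis genes, Nusap1, a spindle-associated protein, was at 19.3, 31.1 and 19.6 in knockout TAC libraries, against 11.2, 13.7 and 12.7 in knockout sham libraries (0.82 ± 0.38, limma-trend, adjusted p = 0.735). Cdk1, the kinase that starts mitosis, was at 24.1, 35.5 and 15.3 in knockout TAC libraries, against 17.3, 10.9 and 9.05 in knockout sham libraries (0.92 ± 0.47, limma-trend, adjusted p = 0.741). Nusap1 did not overlap between the groups and Cdk1 did. Mki67 was at 71.5, 82.1 and 89.4 in knockout TAC libraries, against 48.8, 57.5 and 97.7 in knockout sham libraries. Its highest value was a sham one, and the change was 0.31 ± 0.32 (limma-trend, adjusted p = 0.898). Top2a was at 38.6, 82.1 and 54.5 in knockout TAC libraries, against 27.5, 22.8 and 50.7 in knockout sham libraries (0.79 ± 0.56, limma-trend, adjusted p = 0.835). Prc1 was at 28.0, 29.9 and 45.8 in knockout TAC libraries, against 20.3, 27.4 and 15.4 in knockout sham libraries, without overlap (0.69 ± 0.38, limma-trend, adjusted p = 0.751).

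Cenpf was at 161, 151 and 157 in knockout TAC libraries, against 417, 451 and 379 in knockout sham libraries. Both groups were tight and far apart. With a spread shared by all 4 groups the change was −1.40 ± 0.73 (limma-trend, adjusted p = 0.752). With the knockout libraries alone it had an adjusted p of 0.000392 by limma-trend and was the only member called there, against 0.23% of all genes. The spread of Cenpf in control TAC libraries (SD 268, n = 3) was far larger than in knockout TAC libraries (SD 5.24, n = 3).

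Of the replication genes, Tyms, which makes thymidylate, was at 37.7, 28.8 and 35.99 in knockout TAC libraries, against 27.5, 19.2 and 22.6 in knockout sham libraries (0.55 ± 0.32, limma-trend, adjusted p = 0.774). Mcm3 was at 95.6, 120 and 113 in knockout TAC libraries, against 80.4, 80.3 and 90.5 in knockout sham libraries (0.38 ± 0.23, limma-trend, adjusted p = 0.788). Mcm7 was at 85.0, 103 and 100 in knockout TAC libraries, against 82.4, 79.4 and 69.7 in knockout sham libraries (0.31 ± 0.20, limma-trend, adjusted p = 0.818). Mcm3 and Mcm7 are subunits of the replicative helicase. These 3 genes did not overlap between the groups. Pcna was at 242, 176 and 152 in knockout TAC libraries, against 220, 191 and 169 in knockout sham libraries, which overlap.

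Knockout TAC was set against control TAC to ask whether the loss of lincRNA-p21 altered these genes under overload. No member passed the test, against 8.23% of all genes. Unadjusted p was under 0.05 for 2 members, Ccnd2 and Mcm4, both lower in knockouts, and for 3477 of all genes. Members called by edgeR were 0, as by DESeq2 (12.2% of all genes). Without overlap between the groups 2 members were higher (Ccnd1 and Tyms) and 2 lower (Ccnd2 and Mcm4), against 15.6% and 15.5% of all genes. The median change of the 33 was −0.04 (all genes, 0.01).

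Ccnd2 was at 1517, 1378 and 1568 in knockout TAC libraries, against 1699, 2936 and 1778 in control TAC libraries (−0.48 ± 0.19, limma-trend, adjusted p = 0.118). It was −0.23 without control TAC replicate 2, the high one (limma-trend, adjusted p = 0.478), and −0.23 after removal of the length and GC trend. Mcm4, a helicase subunit, was at 78.2, 103 and 81.8 in knockout TAC libraries, against 111, 129 and 115 in control TAC libraries (−0.43 ± 0.18, limma-trend, adjusted p = 0.149). Ccnd1 was higher in knockouts by 0.25 ± 0.13 (limma-trend, adjusted p = 0.243) and Tyms by 0.53 ± 0.32 (0.313). Tyms was at 37.7, 28.8 and 35.99 in knockout TAC libraries, against 22.7, 21.6 and 25.2 in control TAC libraries. Aurkb, the kinase of the chromosomal passenger complex, was at 14.5, 13.3 and 9.82 in knockout TAC libraries, against 6.49, 10.3 and 1.86 in control TAC libraries (1.10 ± 0.64, limma-trend, adjusted p = 0.302). Aurkb had 114 reads in all 12 libraries together, and the groups overlapped.

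Mki67 had a change of −0.50 ± 0.32 in knockout against control TAC libraries, with overlapping values and an interval of −1.19 to 0.18 (limma-trend, adjusted p = 0.357). Without control TAC replicate 3 the change was −0.95 (limma-trend, adjusted p = 0.0462) and that of Rrm2 −1.52 (0.0256), and these were the 2 members then called, against 7.78% of all genes. With replicate 2 left out instead, the change of Mki67 was −0.22 (limma-trend, adjusted p = 0.770) and that of Rrm2 −0.04 (0.977). Rrm2 was at 20.3, 35.5 and 27.3 in knockout TAC libraries. Cenpf had a change of 0.33 ± 0.73, and without control TAC replicate 1 it was 1.37 with an adjusted p of 0.0191 by limma-trend. The direction of Cenpf turned without control TAC replicate 2 (−0.02) or 3 (−0.35, adjusted p = 0.753 by limma-trend), by edgeR (−0.45) and by DESeq2 (−0.47).

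**Figure D4:**
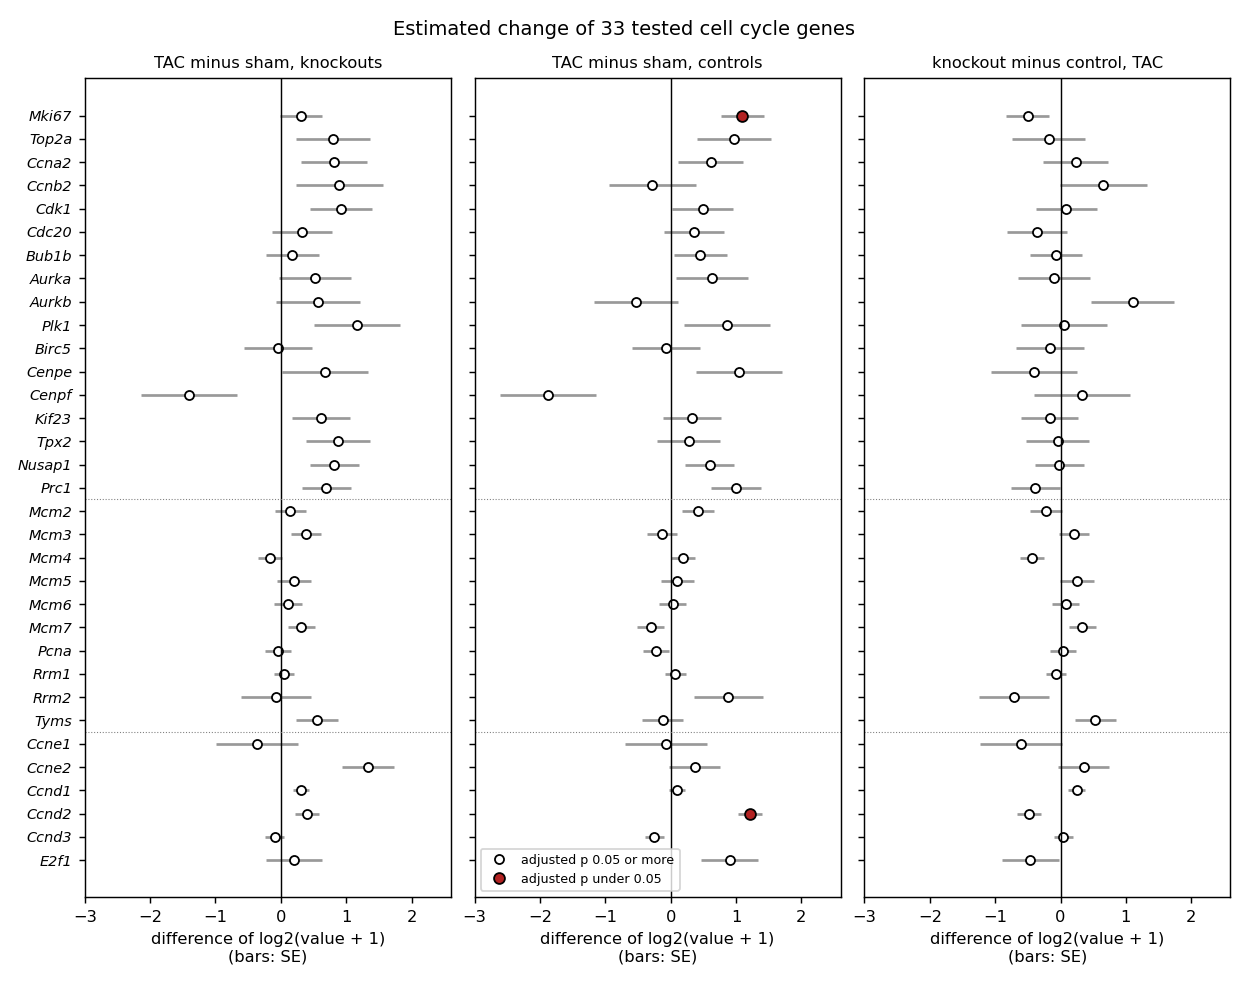
Changes (difference of log2(value + 1), points, with SE bars) of the 33 tested genes are shown for TAC minus sham in knockouts, TAC minus sham in controls and knockout minus control after TAC. Filled points, with an adjusted p under 0.05, are Mki67 (1.10) and Ccnd2 (1.21) in controls; Cenpf lies furthest left in both TAC panels (−1.40 in knockouts and −1.88 in controls).

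Knockout sham was set against control sham to see the effect of genotype in unloaded hearts. No member passed the test, against 0% of all genes, and 0 members had an unadjusted p under 0.05, against 604 of all genes. By edgeR 0 genes were called and by DESeq2 1 (0.00719%), which was no member. Without overlap between the groups 0 members were higher and 2 lower (Mcm7 and Nusap1), against 4.94% and 4.68% of all genes. The median change was −0.08 (all genes, 0.03).

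Mcm7 was at 82.4, 79.4 and 69.7 in knockout sham libraries, against 86.3, 82.6 and 116 in control sham libraries (−0.28 ± 0.20, limma-trend, adjusted p = 0.934). Nusap1 was at 11.2, 13.7 and 12.7 in knockout sham libraries, against 13.9, 14.2 and 17.0 in control sham libraries. Mcm3 was at 80.4, 80.3 and 90.5 in knockout sham libraries, against 85.2, 85.4 and 154 in control sham libraries (−0.31 ± 0.23, limma-trend, adjusted p = 0.934). The high control value of Mcm3 and of Mcm7 was replicate 3, the library that stood apart. Without it the change of Mcm7 was −0.13 and that of Mcm3 was −0.03. Ccnd2 was at 955, 1253 and 1192 in knockout sham libraries, against 1023, 932 and 749 in control sham libraries (0.33 ± 0.19, limma-trend, adjusted p = 0.934). Ccne2 was at 9.16, 10.04 and 7.24 in knockout sham libraries, against 18.1, 18.99 and 7.63 in control sham libraries (−0.61 ± 0.39, limma-trend, adjusted p = 0.934). Tpx2, which builds the spindle and activates Aurora A, was at 7.12, 11.9 and 27.1 in knockout sham libraries, against 10.7, 35.1 and 25.4 in control sham libraries (−0.64 ± 0.49, limma-trend, adjusted p = 0.934). Ccnd2, Ccne2 and Tpx2 overlapped between the groups. The overlap of Ccne2 lay in control sham replicate 3 alone, without which its change was −1.005 (limma-trend, adjusted p = 1) and that of Ccnd2 0.20. Without control sham replicates 1 and 2 in turn the change of Tpx2 was −1.11 and −0.29.

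The difference of the TAC effects, knockout minus control, asks whether genotype altered the response to overload. No member passed, against 0.309% of all genes, and 0 members passed by edgeR or by DESeq2 (3.94% of all genes). Unadjusted p was under 0.05 for 2 members, Ccnd2 and Mcm7, and for 2292 of all genes. The TAC effect on Ccnd2 was 0.40 in knockouts and 1.21 in controls, a difference of −0.81 ± 0.26 (interval −1.37 to −0.25, limma-trend, adjusted p = 0.153). That on Mki67 was 0.31 in knockouts and 1.10 in controls, a difference of −0.79 ± 0.46 (interval −1.76 to 0.18, limma-trend, adjusted p = 0.408). Although Ccnd2 and Mki67 were called in controls and not in knockouts, a difference between the genotypes was thus not shown. Mcm7 had a difference of 0.62 ± 0.29 (limma-trend, adjusted p = 0.295), Ccne2 one of 0.97 ± 0.56 (0.402) and Mcm3 one of 0.52 ± 0.32 (0.446). Their TAC effects in knockouts and controls were 0.31 and −0.31 for Mcm7, 1.34 and 0.37 for Ccne2 and 0.38 and −0.14 for Mcm3. In control TAC libraries Mcm7 was at 85.4, 60.8 and 83.9, Ccne2 at 20.5, 18.5 and 15.8 and Mcm3 at 76.8, 110 and 99.8. Without control sham replicate 3 the difference for Mcm3 was 0.23 (limma-trend, adjusted p = 0.720). Cenpf had a difference of 0.47, which turned to −0.21 without control TAC replicate 3, to −0.24 by edgeR and to −0.26 by DESeq2.

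The genes not given by library ran as follows over the 12 libraries. Among mitosis genes, the cyclins Ccna2 and Ccnb2 were at 9.59 to 41.4 and 2.80 to 26.0. The checkpoint and anaphase genes Bub1b and Cdc20 were at 12.1 to 36.1 and 10.04 to 42.2. The kinases Aurka and Plk1 were at 3.20 to 28.8 and 1.82 to 17.4, and Birc5, the survivin of the passenger complex, was at 4.26 to 25.6. The motors Cenpe and Kif23 were at 3.20 to 25.8 and 12.8 to 50.2. Among replication genes, the helicase subunits Mcm2, Mcm5 and Mcm6 were at 88.5 to 199.8, 39.8 to 75.3 and 99.4 to 173. In G1, Ccne1, cyclin E1, was at 2.18 to 23.2 and Ccnd3 at 336 to 527. None of these passed in any of the 5 comparisons. A single read corresponds to a value of 0.848 to 1.11, so the lowest of these values are a few reads each.

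Around the 36 members, 8 lists of 110 other cell cycle genes were examined, of which 98 were tested. After TAC in controls 6 rose and 7 fell (13.3%, against 21.6% of all genes), and after TAC in knockouts 0 changed. Of 5 CDK inhibitors tested, 1 fell in controls, Cdkn1c, which encodes p57. It was at 72.5, 89.6 and 99.8 in control TAC libraries, against 156, 190 and 283 in control sham libraries, without overlap (−1.22 ± 0.21, limma-trend, adjusted p = 0.00138). Cdkn1a (p21) had a TAC effect of −0.07 ± 0.60 in knockouts and −0.39 ± 0.60 in controls. It was at 266, 236 and 293 in knockout TAC, 560, 1041 and 135 in control TAC, 300.1, 265 and 270 in knockout sham and 361, 746 and 658 in control sham libraries. Knockout minus control was −0.70 after TAC (limma-trend, adjusted p = 0.518) and −1.01 after sham (0.934). After sham all 3 knockout libraries lay below all 3 control libraries, as for 4.68% of all genes, and after TAC the groups overlapped. The spread shared by all groups takes in control TAC (SD 453) and control sham (SD 202), against 18.9 in knockout sham libraries. Of 10 kinases and their regulators tested, 1 fell in controls, the D cyclin partner Cdk4 (−0.47 ± 0.12, limma-trend, adjusted p = 0.0105).

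Of 17 genes of Rb, E2F and DREAM tested, 3 rose in controls and 0 fell. These were Rb1 itself (0.74 ± 0.18, limma-trend, adjusted p = 0.0101), E2f3 (1.07 ± 0.28, 0.0130) and the DREAM subunit Lin54 (0.84 ± 0.25, 0.0256). The call of E2f3 was lost without control TAC replicate 2 (0.0654), and its change was 0.65 without control sham replicate 3 (0.0282). That of Lin54 was lost without control TAC replicate 2 (0.105) or control sham replicate 3 (0.0986, change 0.49). Of 15 origin licensing genes 1 rose, the helicase loader Cdc6 (1.43 ± 0.47, limma-trend, adjusted p = 0.0383), at 18.4, 16.5 and 13.1 in control TAC libraries, against 3.20, 3.80 and 11.0 in control sham libraries. It did not pass with edgeR (adjusted p = 0.0663) or DESeq2 (0.0646), nor without any 1 of the control TAC libraries (0.0545 to 0.110) or without control sham replicate 1 (0.107) or 2 (0.111). Of 20 replication fork genes 2 fell, the polymerase delta subunits Pold1 (−0.63) and Pold2 (−0.57, adjusted p = 0.00867 by limma-trend). Pold1 was lost without control TAC replicate 1 (adjusted p = 0.0758 by limma-trend) or control sham replicate 3 (0.0765). With the length and GC trend removed, 4 of the 13 calls remained (Cdkn1c, E2f3, Anapc11 and Ube2s), and with the libraries of these groups alone also 4 (Cdkn1c, Rb1, Pold2 and Anapc11).

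Of 14 genes of mitotic exit and the anaphase-promoting complex (APC/C), 1 rose (Cdc27, 0.58) and 3 fell in controls (Anapc11, −0.85; Fzr1, −0.48; Ube2s, −0.68). Anapc11, the RING subunit of the APC/C, had an adjusted p of 0.00145 by limma-trend and was called without any single library (highest adjusted p 0.0104). Cdc27 was lost without control TAC replicate 2 (0.0854), control sham replicate 2 (0.0880) or control sham replicate 3 (0.0730). Fzr1 was lost without control TAC replicate 2 (0.0830) or control sham replicate 2 (0.0541). Ube2s was lost in 6 of the 12 fits that left out 1 library (highest adjusted p 0.121, without control sham replicate 2). Of 9 spindle checkpoint genes 0 changed. Of 8 quiescence genes Tob1 rose (0.58), a call lost in 9 of the 12 such fits (highest adjusted p 0.175, without control TAC replicate 2), with a change of 0.35 without control sham replicate 3.

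In knockout against control TAC libraries 3 of the 98 rose and 0 fell (3.06%, against 8.23% of all genes). Gmnn, geminin, which stops a second round of replication, was at 553, 596 and 450.4 in knockout TAC libraries, against 287, 276 and 426 in control TAC libraries (0.71 ± 0.17, limma-trend, adjusted p = 0.0190). The groups did not overlap, but the call was lost without knockout TAC replicate 1 (0.0897) or 2 (0.108) or control TAC replicate 1 (0.0949) or 2 (0.0949). The others were Cdk4 (0.39 ± 0.12, limma-trend, adjusted p = 0.0473, or 0.0575 with the replicate number as a block) and Anapc11 (0.53 ± 0.15, 0.0364). Cdk4 was at 546, 530.2 and 512 in knockout TAC libraries, against 375, 409 and 424 in control TAC libraries. Cdk4 was lost in 9 of the 12 fits that left out 1 library (highest adjusted p 0.172, without control TAC replicate 1), and Anapc11 in 7 of the 12 (highest 0.175, without knockout TAC replicate 2). The 3 control TAC libraries serve both here and in the TAC effect of controls.

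Markers of other cell types that could cycle moved in part with these comparisons. The summed level of 7 fibroblast markers was 13896 to 14973 in control TAC libraries, against 9308 to 10769 in control sham libraries, and 2 of the 7 rose. It was 7743 to 10678 in knockout TAC libraries, against 8598 to 9494 in knockout sham libraries, with 0 of 7 changed. Of 10 macrophage markers 0 changed in any comparison of groups, with sums of 2524 to 3583 in knockout TAC, 2578 to 4228 in control TAC, 2772 to 3126 in knockout sham and 3203 to 4332 in control sham libraries. Lymphocyte markers were near 0, with 4 of 8 under 10 in every library and sums of 14.1 to 77.2. The 5 tested erythroid markers gave 3 that fell in controls after TAC. Sums over all 6 erythroid markers were 2407 to 4124 in control TAC libraries, against 6159 to 6729 in control sham libraries. Of 6 mesothelial markers 5 fell in controls after TAC, with sums of 12.4 to 64.9 in control TAC libraries, against 126 to 455 in control sham libraries. Of 6 cardiomyocyte markers 1 rose and 3 fell in controls after TAC, with sums of 647569 to 725323 in control TAC libraries, against 803875 to 827822 in control sham libraries. Of 8 endothelial, 4 mural and 3 tested neutrophil markers 0 changed there. In knockout against control TAC libraries, where Gmnn, Cdk4 and Anapc11 were called, 4 of 7 fibroblast markers fell and 2 of 5 erythroid and 2 of 6 mesothelial markers rose. Of the 6 cardiomyocyte markers 3 rose and 1 fell in that comparison, with sums of 790953 to 872718 in knockout TAC libraries. The part of these cells in the results for Ccnd2, Mki67, Gmnn, Cdk4 and Anapc11 was not tested.

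Some values may hold reads of a neighbour, as whether counting used the strand is not given in the sources used here. By annotation (GENCODE M21), 23.4% of the exonic bases of Ccnd1 overlap LTO1 on the other strand, 17.4% of Ccne2 overlap Ints8, 12.5% of Ccna2 overlap Exosc9 and 11.1% of Prc1 overlap Rccd1. Smaller overlaps on the other strand include Ccnd2 with Gm43126 (3.95%) and with 9330179D12Rik (3.91%). Others are those of Mcm7 with Ap4m1 (7.25%), Plk1 (7.09%), Nusap1 (4.24%), Ccnd3 (4.11%) and Cdc20 (2.84%).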

How the data were processed

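Polyadenylated RNA of 12 libraries was measured by RNA-seq, with libraries made by a stranded mRNA kit per the labels' protocols. The submitters' processing notes name STAR, featureCounts, SAMtools and the build GRCm38.p6; of versions, annotation, strand setting and normalisation, none is given in the sources used here. The authors deposited signal values, gene reads scaled by a size factor of each library, as the values themselves show: 100% are whole multiples of one step per library, within 0.01, so reads could be recovered. Of 56350 IDs, 55480 matched GENCODE M21, from which symbols, lengths and GC content come.

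The 13916 genes that reached a value of 10 in 3 or more libraries were fitted with limma-trend (limma 3.58.1, R 4.3.3, robust moderation) on log2(value + 1), with 4 group means over all 12 libraries and 5 contrasts, adjusted by Benjamini-Hochberg at 0.05 within each. A gene is called where its adjusted p is under 0.05. The fit was tested on simulated data. Sums have no test. Values per library are given for members called in any contrast, the 5 members with the smallest p in each contrast, and Mki67, Top2a and Pcna. For members named by a contrast they cover at least the groups of that contrast. Of the other cell cycle lists the called genes are named, and Rrm2 was added after its values were seen. The members, lists and roles were chosen with earlier results of these data known. Alternatives were edgeR 4.0.16 quasi-likelihood tests with TMM and DESeq2 1.42.0 on the recovered reads (edgeR called 3002 and DESeq2 3341 genes after TAC in controls), TMM scaling, pseudocounts of 0.5 and 5, other filters, the replicate number as a block, the compared libraries alone, removal of the length and GC trend by loess (span 0.5) and leaving out each library. Floors of 3 counts cover counting error only. Promoters were searched with Python 3.11.15 in the RefSeq table.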

Additional observations from a re-analysis of the deposited data

How the results depend on the processing

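The numbers of members called after TAC in controls, 2 as reported, were 4 with DESeq2 (Ccnd2, Mki67, Prc1 and Rrm2), 1 with the compared libraries alone and 1 with the length and GC trend removed (Ccnd2 in both), and 1 to 6 when 1 library was left out. In knockouts after TAC the number was 1 with the compared libraries alone (Cenpf) and 0 to 0 with 1 library left out; after TAC it was 0 to 2 for knockout against control, and it was 0 to 0 after sham and for the difference of TAC effects. Among all genes, 3006 calls after TAC in controls became 1433 with the compared libraries alone and 1601 with the length and GC trend removed, where 637 were higher and 964 lower in place of 1533 and 1473; the range without 1 library was 1549 to 3656. For knockouts after TAC the 1 call became 23 with DESeq2, 2 with no filter, 3 with the replicate block and 32 with the compared libraries alone, and 0 to 7 without 1 library. For knockout against control after sham DESeq2 called 1, and leaving out 1 library gave 0 to 1. After TAC the 1145 calls, 570 higher and 575 lower, became 646 (406 and 240) with the length and GC trend removed, and 202 to 2143 without 1 library. The 43 calls for the difference of TAC effects became 463 with DESeq2, 65 with a pseudocount of 5, 124 with no filter and 17 with the length and GC trend removed, and 8 to 755 without 1 library. The causes were not tested.

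The log2 ratio of the mitosis sums without Cenpf, an alternative chosen after seeing the data, was 0.76 for TAC over sham in controls and 0.59 in knockouts, in place of −0.08 and −0.24. For the G1 sum, knockout over control after sham was 0.054 with values scaled to equal library totals in place of 0.126. With 1 library left out, the log2 ratios for TAC over sham in controls, TAC over sham in knockouts, knockout over control after sham and knockout over control after TAC were, in this order, −0.53 to 0.29, −0.31 to −0.16, −0.29 to −0.06 and −0.70 to 0.12 for mitosis; −0.04 to 0.14, 0.05 to 0.15, −0.15 to −0.04 and −0.12 to 0.06 for replication; and 0.42 to 0.74, 0.25 to 0.32, 0.09 to 0.16 and −0.32 to −0.01 for G1.

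Replicate numbers are shared between groups. The deviations of the 18 same-numbered pairs had correlations of −0.07 to 0.25, 3 of them over 0.1. Different-numbered pairs reached 0.16 (knockout TAC replicate 1 with control sham replicate 2), and 6 of 12 libraries correlated best with their own number. These values do not settle whether the numbers mark pairs. The main fit took no pairing, and the number as a block was an alternative. With the number as a block 3151 genes and 2 members were called after TAC in controls, 1198 genes for knockout against control after TAC and 47 for the difference of TAC effects, and of the genes named above the call of Cdk4 after TAC was lost (adjusted p = 0.0575 by limma-trend). Depth limits the mitosis genes, many of which have low read counts in each library, and with 3 libraries per group changes of such genes may be missed.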

Other observations

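The mitosis genes also differed between libraries of the sham groups. Of the 18 with reads other than Cenpf, control sham replicate 1 was lowest in its group for 18 (ties at 0 included) and lowest of all 12 libraries for 8. Knockout sham replicate 3 was highest in its group for 9. In control TAC replicate 2, 7 of the 18 were at their highest of all 12 libraries, and in control TAC replicate 1 it was 5. In knockout TAC replicates 1, 2 and 3, 6, 11 and 8 of the 18 exceeded all 3 knockout sham libraries. These counts were not made over all genes, so whether they are particular to mitosis genes was not tested. Cenpf ran apart from the 18 here too, as control sham replicate 1 held its highest value of all (636).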
